A study of Mus musculus with 3 samples.

Results

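The genes described here are the zinc finger protein genes that the authors listed for pancreatic beta cells, namely those whose name is Zfp followed by a digit, leaving out names that start with Zfp36. The rule found 133 of the 8193 genes listed for beta cells (1.62%), 0 of 186 for alpha cells and 1, Zfp644, of 231 for delta cells. Of the 133, 132 code for protein, which is 34.3% of the 385 protein-coding genes of such names in GENCODE M21, and Zfp335os is an RNA antisense to Zfp335. The rule also leaves out Zfp36, an mRNA-decay protein of another zinc finger class, and with it, by spelling alone, Zfp362, Zfp365 and Zfp367. Genes that a table does not list were not analysed here.

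Islets came from 2 knockout mice, in which the endoplasmic reticulum stress sensor IRE1α was deleted in beta cells (IRE1αβ-/-), and from 1 floxed control mouse (IRE1αfl/fl). All 3 mice were of the diabetes-prone strain NOD/ShiLtJ, were 5 weeks old and had received intraperitoneal tamoxifen (10 mg/ml, 5 days), the control included. The sources used here do not give the Cre driver, whether the control carried it, or which exons were removed. Islets had been cultured overnight and dissociated before single-cell libraries were made. Values are mean UMIs (unique molecular identifiers, 1 per captured RNA molecule) per cell, neither scaled for depth nor for gene length.

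C2H2 zinc finger proteins fold short loops around a zinc ion held by a pair of cysteines and a pair of histidines, and arrays of such loops, the fingers, read DNA or RNA sequence. In mammals many also carry a KRAB domain, which recruits TRIM28 (KAP1) and through it the histone methyltransferase SETDB1 and the HP1 proteins, and which is best known for silencing retrotransposons. The KRAB genes lie in tandem clusters and are mostly transcribed at low levels. Members without KRAB have varied roles in transcription, RNA processing, ribosome assembly and ubiquitin ligation.

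The sequences of 4 members show the parts by which the proteins were sorted. They are Zfp9, the member with the lowest ratio, Zfp560 and Zfp664, which are among the most abundant, and Zfp644, the member listed in more than 1 cell type. Each is coding-strand DNA of build mm10, 5′ to 3′, within 1 exon, and capitals mark the codons of the cysteines and histidines. The fingers of Zfp9 (chr6:118465019-118465096, minus strand), Zfp560 (chr9:20348647-20348724, minus strand) and Zfp664 (chr5:124885808-124885885, plus strand) run on into the linker to the next finger. The finger of Zfp644 (chr5:106637381-106637443, minus strand) is shown without what follows it.
Zfp9 finger: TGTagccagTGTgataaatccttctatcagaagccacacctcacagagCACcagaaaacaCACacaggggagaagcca
Zfp560 finger: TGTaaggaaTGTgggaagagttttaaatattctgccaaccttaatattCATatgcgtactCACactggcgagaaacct
Zfp664 finger: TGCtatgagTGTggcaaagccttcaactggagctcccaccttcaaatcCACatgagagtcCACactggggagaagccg
Zfp644 finger: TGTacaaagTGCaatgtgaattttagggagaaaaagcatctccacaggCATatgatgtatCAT

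The KRAB A boxes of Zfp9 (chr6:118467273-118467344, minus strand) and Zfp560 (chr9:20351872-20351943, minus strand) show the stretch that makes a member a KRAB gene here. Capitals mark the codons of the positions that the search restricted to a few residues each.
Zfp9 KRAB A box: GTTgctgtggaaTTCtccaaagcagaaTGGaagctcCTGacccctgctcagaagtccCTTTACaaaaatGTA
Zfp560 KRAB A box: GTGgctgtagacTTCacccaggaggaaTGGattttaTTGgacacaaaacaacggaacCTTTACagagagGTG

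At least 1 C2H2 finger was found in 130 of the 132 proteins, the exceptions being Zfp750 and Zfp968. The median was 9 fingers and the largest number 33, in Zfp462. A KRAB A box was found in 47 members, with a median of 11 fingers, and in 85 proteins none was found, with a median of 7. A box that departs from the search pattern would be missed, and how many were missed was not tested. The search covered the whole protein, and whether each match is a true box was not tested. The coding sequences of 12 members share at least 20% of their 31-base words with that of another gene named by the rule, so their counts may be uncertain. Untranslated ends were not compared, and whether the counts are affected was not tested. Zfp991 and Zfp992, both listed, share 88%.

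The beta-cell means rest on 815 knockout cells, pooled over both mice, and 829 control cells, numbers that were inferred from the values. With that pool and 1 control mouse no test of the genotype was possible, and intervals of a ratio cover counting error only. Listed genes summed to 24796 UMIs per knockout cell and 31552 per control cell, and without Ins1, Ins2 and Iapp to 11434 and 9498. Beta-cell markers were present, with Ins2 at 9146 UMIs per knockout cell and 13373 per control cell, and all 6 of 8 that were listed were lower in the knockout. Listed markers of other cells summed higher in knockout than in control beta cells: 4 of 7 alpha markers (114 against 49.2 UMIs per cell, all 4 higher), 3 of 4 delta markers (64.6 against 39.6), 2 of 3 PP and epsilon markers (107 against 21.7) and 3 of 4 red-cell haemoglobin genes (22.6 against 0.0639). The sums were also higher for the 2 of 4 duct markers listed (5.11 against 3.45), the 3 of 5 mesenchymal (0.108 against 0.00844) and the 1 of 6 acinar (0.114 against 0). For the 2 of 4 endothelial markers the sum was higher (0.363 against 0.192), though only 1 of the 2 was. For the 3 of 5 immune markers it was lower (0.415 against 0.586), though 2 of the 3 were higher. The part of these transcripts in the results on zinc finger genes was not tested. Ern1, the gene of IRE1α, was not lower in the knockout beta cells (0.742 against 0.509 UMIs per cell, ratio 1.46, interval 1.29 to 1.66), and reads outside the removed exons would not show the deletion.

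In unscaled UMIs per cell, zinc finger protein genes were higher in knockout beta cells almost throughout, as were most listed genes, whereas relative to the median of all listed genes 87 of 133 were higher. Summed over the 133 members there were 37.0 UMIs per knockout cell and 26.0 per control cell, a ratio of 1.43 (exact 95% interval 1.40 to 1.45). The members made up 0.324% of the listed UMIs other than Ins1, Ins2 and Iapp in the knockout and 0.274% in the control. The knockout mean was higher for 131 members and lower for 2, Zfp9 and Zfp106, beside 95.0% higher among all listed genes. A ratio of at least 1.5 was reached by 79 members (59.4%), beside 45.7% of all listed genes, and a ratio as far below 1 by 1 member, beside 2.47%. The median ratio was 1.58 over the members and 1.45 over all listed genes, or 0.66 and 0.54 on the log2 scale. The interval lay above 1 for 121 members, below 1 for Zfp9, and held 1 for 11. Among all 8193 listed genes it lay above 1 for 7127, below 1 for 296, and held 1 for 770. Listed genes all had a small adjusted p from the authors, which favoured intervals clear of 1 beforehand.

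How many members counted as higher depended on the scaling. Scaled to the listed UMI total, 132 of 133 were higher, beside 97.2% of all listed genes, and 125 passed 1.5-fold, beside 83.2%. Scaled to that total without Ins1, Ins2 and Iapp, 122 were higher, beside 80.5%, and 38 passed, beside 25.7%. Relative to the median of all listed genes, which lay 0.54 above 0 on the log2 scale, 87 were higher and 46 lower, beside 50% higher, and 19 passed, beside 16.0%. Zfp9 was lower under each of these 4 scalings, with ratios between 0.331 and 0.613, and Zfp644 was higher under each, between 1.64 and 3.04.

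The members were weakly expressed, and the ratio of a listed gene went with its level. The median member had 0.185 UMIs per knockout cell and 0.119 per control cell, whereas the median over the other listed genes was 0.413 and 0.290. Under 0.1 UMIs per control cell lay 55 members (41.4%), beside 22.5% of the other genes. Among the 16 members under 0.03 the median ratio was 2.67, and the other genes of that range had 3.49. Among the 39 from 0.03 to 0.1 it was 1.73, against 1.97 for the others. The medians of these rarest members were thus high but below those of other genes in the same range. Some single members were above the median of those genes. The range under 0.03 also holds other genes with no control UMI, whose ratios used a floor of 3 UMIs. Beside genes of like level, which leave those out, the median differences were -0.17 under 0.03 and -0.20 from 0.03 to 0.1 (log2). From 0.1 to 0.3 there were 54 members with a median ratio of 1.5, as for the other genes, and from 0.3 to 1 there were 20, with 1.33 against 1.32. The 4 members above 1 had 1.09 against 1.18. Spearman's correlation of log2 ratio and control level was -0.78 across the 133 members and -0.71 across the 8056 other genes, a description in which the control mean enters both measures. A rare gene also had to differ more to be listed: the lowest listed ratio above 1 was 1.61 under 0.03 UMIs per control cell, 1.22 from 0.03 to 0.1 and 1.09 from 0.1 to 0.3.

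**Figure D1:**
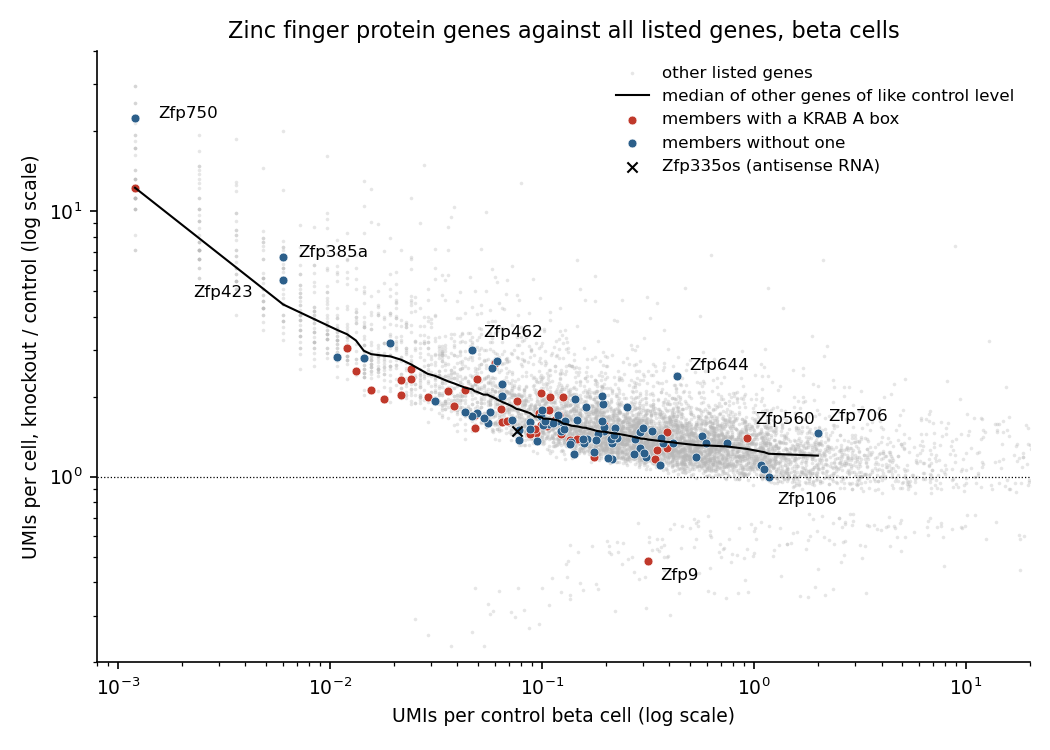
Ratio of knockout over control mean UMIs per cell (vertical, log scale) against UMIs per control beta cell (horizontal, log scale). Members in which a KRAB A box was found are red, those in which none was found blue, Zfp335os a cross and other listed genes grey. Genes beyond the axes or with no UMI in a group are not drawn. The black line is the median over other genes of like control level; 46 of 133 members lie above it, Zfp9 lies far below it and Zfp644 well above.

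Each member was therefore set beside the other listed genes whose control mean was at most 25% above or 20% below its own, a median of 677 genes per member (38 to 1146). Of the 133 members, 46 (34.6%) exceeded the median log2 ratio of these genes, beside 49.9% of the other listed genes treated in the same way. The median difference was -0.09 on the log2 scale, with quartiles of -0.23 and 0.07. So the share of members past 1.5-fold was above that of all listed genes, while most members were slightly below genes of like level. A distance of at least 1.5-fold above the like-level median was seen for 3 members, Zfp644, Zfp385a and Zfp750, and below it for 1, Zfp9, beside 6.59% and 2.95% of the other genes. Zfp750 was named after its values were seen.

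Zfp9, a KRAB gene with 12 fingers on chromosome 6 (118461950 to 118479320, minus strand), was the exception among the members. It had 0.152 UMIs per knockout cell and 0.316 per control cell, from 124 and 262 UMIs, a ratio of 0.481 (0.386 to 0.598). Of the genes of like level, 0.544% were lower, and Zfp9 lay 1.52 below their median on the log2 scale. The p of Zfp9 in the authors' deposited table was 4.65e-06. Its neighbours within 1 Mb did not share its direction: Zfp637 and Zfp239 lie in the same group of 3 genes, whose highest ratio was 2.80, for Zfp239.

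Zfp644, whose human homologue is a partner of the histone methyltransferases G9a and GLP, lay at the other end. It had 1.03 UMIs per knockout beta cell and 0.432 per control cell, from 840 and 358 UMIs, a ratio of 2.39 (2.11 to 2.71) and 0.83 above like-level genes on the log2 scale. In delta cells, where each mouse has its own column, it had 1.15 and 1.46 UMIs per cell in the first and second knockout mouse, and 0.604 in the control mouse. Both knockout mice were above the control. The counts were 159 and 114 UMIs in 138 and 78 knockout cells, and 61 UMIs in 101 control cells, with cell numbers inferred from the values. The knockout mean of 1.31 ± 0.219 (SD, n = 2) was 2.16 times the control value, and single-mouse ratios were 1.91 (1.41 to 2.61) and 2.42 (1.76 to 3.36). Of the 231 genes listed for delta cells, 38.5% were at least 1.5-fold higher in the knockout mean with both mice above the control. With 3 mice the smallest 2-sided exact permutation p is 0.667, so no test was made. The knockout delta cells came from the same mice as the beta cells, and both comparisons share the control mouse.

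**Figure D2:**
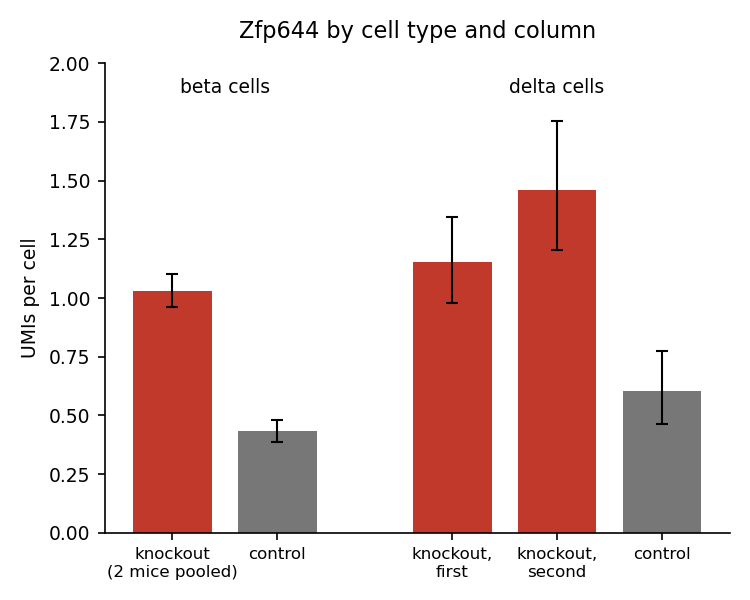
Zfp644 in UMIs per cell (vertical, from 0) in beta cells, where both knockout mice are pooled, and in delta cells of each mouse; bars are means over cells and error bars exact 95% Poisson intervals, counting error only. In delta cells both knockout mice (1.15 and 1.46) are above the control mouse (0.604), as is the knockout pool in beta cells (1.03 against 0.432).

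The median KRAB gene had a higher ratio than the median of the other members and a lower level. Of the 47, 46 were higher in the knockout (36 relative to the median of all listed genes) and 34 passed 1.5-fold (72.3%), beside 95.0% and 45.7% of all listed genes, with a median ratio of 1.73 and a median of 0.0929 UMIs per control cell. Of the 85 members in which no KRAB A box was found, 84 were higher (50 relative to that median). Of these 85, 45 passed 1.5-fold (52.9%, nearer to the 45.7% of all listed genes). The median ratio of the 85 was 1.51 and their median control level 0.156. They may include KRAB genes that the search pattern missed. Beside genes of like level the order was the other way round: 13 KRAB genes (27.7%) and 33 of the others (38.8%) lay above the like-level median, with median differences of -0.15 and -0.05. At 0.1 UMIs per control cell and more, 7 of 18 KRAB genes and 23 of 60 others were above it, which are nearly equal shares. Below that level 6 of 29 and 10 of 25 were. The median differences did not follow these counts. They were -0.08 for KRAB genes and -0.04 for others at 0.1 and more, and -0.18 for both under 0.1. The number of fingers went a similar way. Of 34 members with 0 to 4 fingers 17 were above the like-level median, of 45 with 5 to 9 fingers 14 were, and of 53 with 10 or more 15 were. Across 132 members the Spearman correlation of finger number with the like-level difference was -0.19, and with control level -0.30, given as a description.

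**Figure D3:**
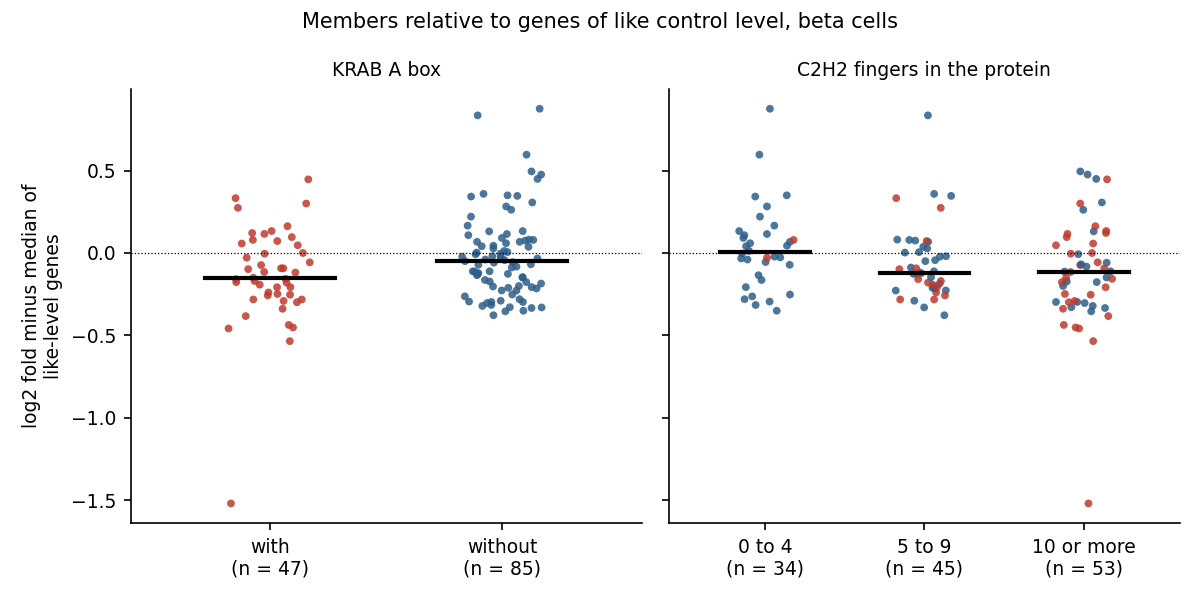
Log2 ratio of each protein-coding member minus the median of other listed genes of like control level (vertical), by KRAB A box (left) and number of fingers (right). Points are genes, red where a KRAB A box was found and blue where none was, and bars are medians. The median is -0.15 where a KRAB A box was found and -0.05 where none was. The lowest point is Zfp9.

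Among the KRAB genes, Zfp560 was the most abundant, with 1.29 UMIs per knockout cell and 0.926 per control cell, a ratio of 1.39 (1.27 to 1.53). Zfp445, which in mouse protects genomic imprints, had 0.502 and 0.391, a ratio of 1.28 (1.11 to 1.49). These well-measured genes had modest ratios. Zfp809, which silences endogenous retroviruses in mouse embryonic cells, had 0.205 UMIs per knockout cell and 0.121 per control cell, a ratio of 1.70 (1.32 to 2.20). Zfp568, which represses a placental transcript of Igf2 in mouse, had 0.194 and 0.109, a ratio of 1.79 (1.37 to 2.34). Both were within 0.12 (log2) of genes of like level. The highest ratios among the KRAB genes named were those of Zfp607a, with 132 UMIs in knockout and 50 in control cells (ratio 2.69, 1.93 to 3.80), and Zfp773, with 30 and 10 (3.05, 1.45 to 7.0). Zfp607a lay 0.45 above genes of like level on the log2 scale, and the difference for Zfp773 was -0.17. For Zfp266 and Zfp617 the intervals of the ratio, 0.986 to 1.37 and 0.944 to 1.49, held 1.

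The most abundant member was Zfp706, which promotes the exit of mouse embryonic stem cells from self-renewal. It had 2.92 UMIs per knockout cell and 2.00 per control cell, a ratio of 1.46 (1.37 to 1.55), and lay 0.28 above like-level genes on the log2 scale. The other 3 members above 1 UMI per control cell had ratios nearer to 1, and all 3 were below 1 once scaled to the listed UMIs other than Ins1, Ins2 and Iapp. Zfp106, an RNA-binding protein needed for neuromuscular function, had 1.17 UMIs per cell in both groups (ratio 0.994, 0.908 to 1.09). The p of Zfp106 in the authors' deposited table was 0.00243, and the test behind it is not described in the sources used here. Zfp91, a ubiquitin ligase tied to noncanonical NF-kB signalling, had 1.19 UMIs per knockout cell and 1.12 per control cell (ratio 1.07, 0.975 to 1.17). Zfp207, known as BuGZ, which loads Bub3 at the spindle, had 1.20 and 1.08 (ratio 1.11, 1.01 to 1.22). These 3 lay between 0.16 and 0.29 below like-level genes on the log2 scale.

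Zfp598, the ubiquitin ligase that marks collided ribosomes, had 0.811 UMIs per knockout cell and 0.572 per control cell (ratio 1.42, 1.26 to 1.60). Zfp622, homologue of a yeast factor of late 60S ribosome assembly, had 0.499 and 0.374 (1.34, 1.15 to 1.55). Zfp326, of the complex that couples RNA polymerase II elongation to splicing, had a ratio of 1.40 (1.15 to 1.70), as did the RNA-binding Zfp638 (1.21 to 1.63). Zfp830, a splicing factor, had 1.62 (1.23 to 2.15). Each of these 5 was within 0.12 (log2) of genes of like level. Zfp451, a SUMO ligase in human cells, had a ratio of 1.18 with an interval that held 1 (0.998 to 1.40).

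**Figure D4:**
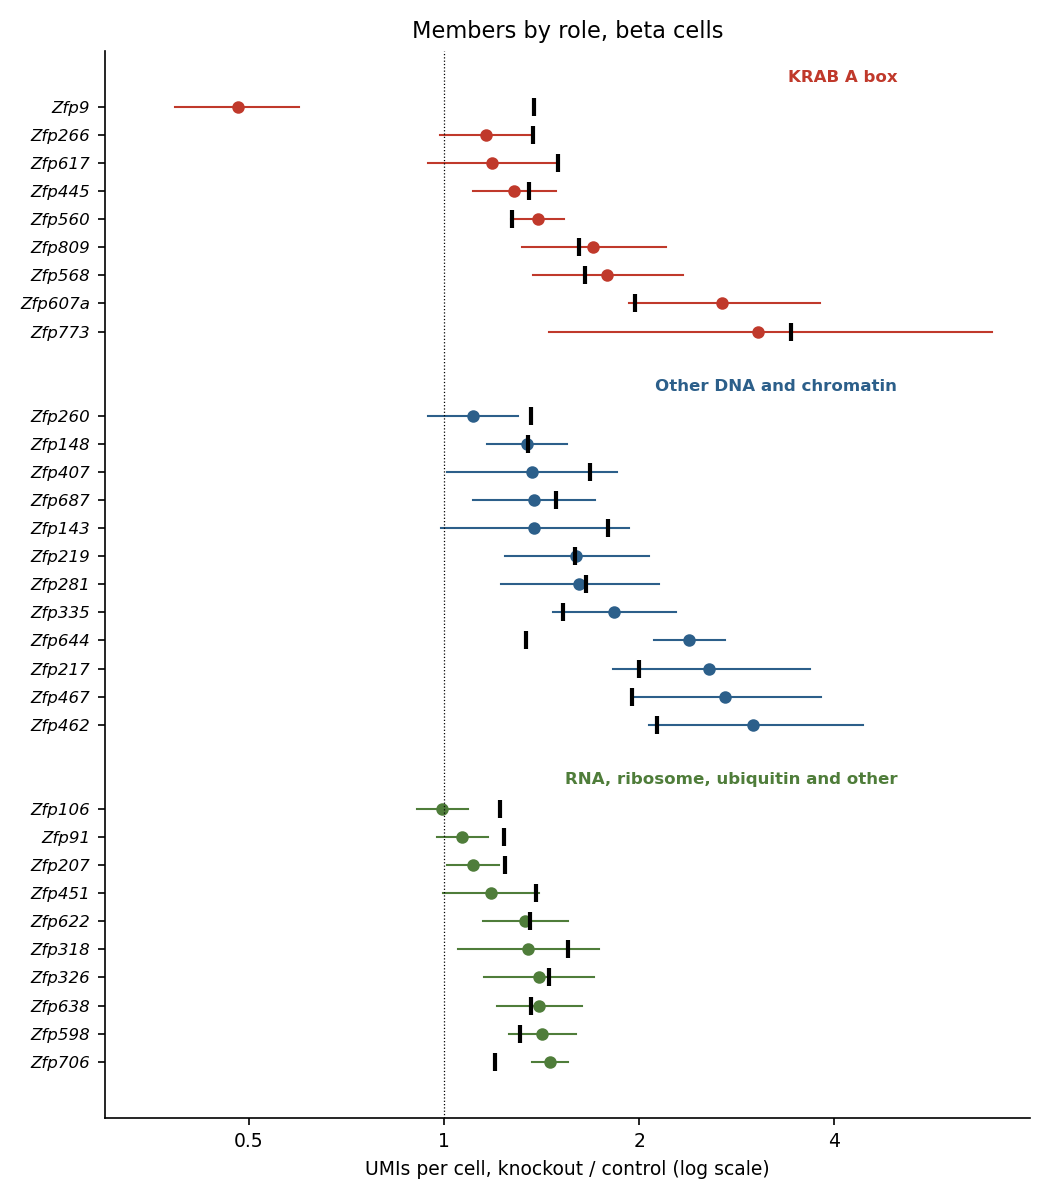
Ratio of knockout over control mean UMIs per beta cell (horizontal, log scale) for named members grouped by role, with exact 95% intervals (counting error only); black ticks are the median ratio of other genes of like control level. Zfp9 lies left of its tick and Zfp644 right of it by the widest margins, and 21 of the 31 intervals hold their tick.

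Zfp148 and Zfp281, which bind GC-rich promoters, had ratios of 1.34 (1.16 to 1.55) and 1.62 (1.22 to 2.14). Zfp281 lay 0.03 below genes of like level on the log2 scale, and Zfp148 differed from them by less. Zfp143, an activator bound at many promoters, had 1.38, and its interval held 1 (0.988 to 1.93). Zfp335, part of a histone methyltransferase complex and needed for thymocyte maturation in mouse, had 0.296 UMIs per knockout cell and 0.162 per control cell (1.83, 1.48 to 2.28). Zfp335os overlaps Zfp335 by 404 bases on the other strand, and since the strand setting of the counting is not given, reads of the overlap cannot be told apart.

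The highest ratios among members with at least 30 UMIs belonged to rare transcripts. Zfp385a, a cofactor of p53, had 33 UMIs in knockout and 5 in control cells (ratio 6.71, 2.60 to 22.0), and Zfp423, a regulator of the adipocyte lineage, had 27 and 5 (5.49, 2.09 to 18.3). Zfp462, with the most fingers, had 115 UMIs in knockout and 39 in control cells (3.0, 2.07 to 4.43). Zfp467, a regulator of fat-cell differentiation, had 136 and 51 (2.71, 1.95 to 3.82), and Zfp217, a partner of corepressor complexes, 121 and 48 (2.56, 1.82 to 3.66). All 5 lay between 0.31 and 0.60 above like-level genes on the log2 scale. Zfp41, Zfp239 and Zfp112, with 16, 12 and 9 control UMIs, had ratios between 2.80 and 3.18 and differed from genes of like level by 0.17, -0.09 and -0.33 on the log2 scale. The UMIs of Zfp750 (22 in knockout and 1 in control cells, ratio 22.4, interval 3.62 to 924) were too few to rank it.

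The genes of the proteins through which KRAB acts were also higher in knockout beta cells in unscaled UMIs. Relative to the median of all listed genes 9 of 16 were higher, beside 50% of all listed genes. Of the 24 corepressor genes considered, 16 were listed, all 16 higher, beside 95.0% of all listed genes. Of the 16, 8 were past 1.5-fold (50%, beside 45.7% of all listed genes), and the median ratio was 1.5. Beside genes of like level 11 of the 16 were above the median, beside 49.9% of other listed genes. The median difference was 0.21 (log2), whereas it was -0.09 for the zinc finger genes. Trim28 itself had 0.555 UMIs per knockout cell and 0.468 per control cell (1.18, 1.03 to 1.36), 0.18 below like-level genes on the log2 scale. Atf7ip, the partner of SETDB1, had the highest ratio, 2.06 (1.67 to 2.54), and Sumo2, a modifier through which TRIM28 binds its partners, had 6.33 against 3.74 UMIs per cell (1.69, 1.62 to 1.77). The HP1 gene Cbx3 had 1.67 (1.5 to 1.86), and Cbx5 had 1.18 (1.06 to 1.32). Besides Trim28, those below like level were Cbx5, Mphosph8, Morc2a and Smarcad1, with differences of -0.15, -0.17, -0.10 and -0.04.

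Other families of zinc finger genes were mostly higher as well in unscaled UMIs. Relative to the median of all listed genes, 13 of 21 Zbtb, 6 of 8 Zkscan and Zscan and 8 of 11 Klf genes were higher. So were 37 of 71 genes of other zinc-binding families, beside 50% of all listed genes. Of 21 Zbtb genes, whose proteins pair fingers with a BTB domain, 21 were higher and 11 past 1.5-fold (52.4%), beside 95.0% and 45.7% of all listed genes. Of the 21, 7 exceeded genes of like level (median difference -0.05), beside 49.9% of other listed genes. Of 8 Zkscan and Zscan genes 8 were higher and 6 passed (75%), with 2 above like level (-0.12). Of the Klf genes, 10 of 11 were higher, 7 passed 1.5-fold (63.6%) and 6 were above like level (0.22). The exception was Klf15, with 6 UMIs in knockout and 24 in control cells. Zinc-binding families of other kinds had 67 of 71 genes higher and a median difference of -0.01. The 3 listed Sp genes were all higher, with 2 above like level (0.09). The lists were not tested against each other.

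**Figure D5:**
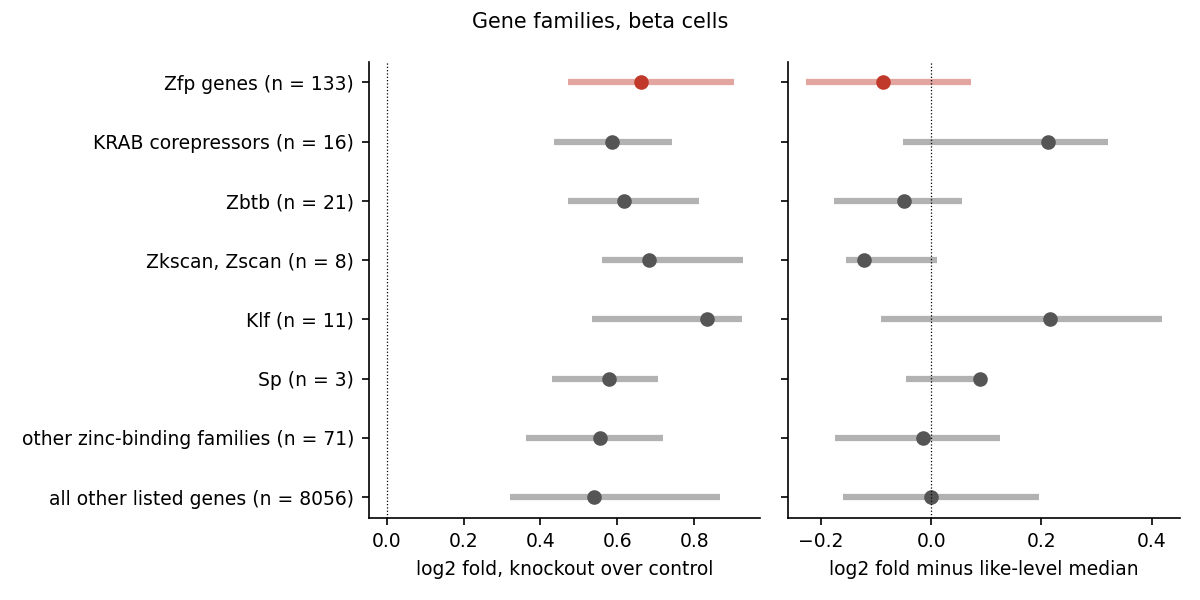
Median (points) and quartiles (bars) of the log2 ratio of knockout over control (left) and of its difference from genes of like control level (right), by gene family, in beta cells; n is the number of listed genes. The Zfp genes (red) have a median log2 ratio of 0.66 and a median difference of -0.09, and the KRAB corepressors 0.59 and 0.21.

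By position, 31 members lie on chromosome 7, where they are 4.99% of the 621 listed genes, beside 1.62% overall. Members with gaps of at most 1 Mb form 12 groups of 3 or more, with 47 members. A group of 6 KRAB genes on chromosome 4 (145510759 to 147809788), Zfp990, Zfp992, Zfp991, Zfp985, Zfp979 and Zfp984, had unscaled ratios between 1.26 and 2.12, and a group of 4 on chromosome 17 (21707741 to 22225616), Zfp760, Zfp229, Zfp995 and Zfp994, between 1.84 and 2.54. Every gene of both groups was thus above 1 before centring, as were 95.0% of all listed genes. The log2 ratios of Zfp992 and Zfp990, 0.34 and 0.47, were below the median of 0.54 over all listed genes, and the others were above it. The groups' median differences from like-level genes were -0.10 and -0.12 on the log2 scale.

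RefSeq promoters (GRCm38.p6, 250 bases before to 50 after the start) matched 105 members. Their windows had a median of 17 CpG sites, against 22 for other listed genes and 7 for all genes of that table, and a GC content of 58.3% against 61.7% and 52.7%. The unfolded-protein-response element TGACGTGG, to which XBP1 can bind, was found on either strand in 1 member (0.952%), Zfp651, in 0.915% of other listed genes and in 0.714% of all genes. A match is a description and not a site.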

How the data were processed

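Single-cell libraries (10X Genomics, per the labels' protocols) came from 2 knockout mice and 1 control mouse. The submitters' processing notes name Cell Ranger 3.0.0 and mm10. Filtering and typing of cells, and any treatment of doublets and free RNA, are not described in the sources used here. The authors deposited 1 table per cell type, whose signal values are mean UMIs per cell, not scaled for depth. Cell numbers were inferred from the values, as the smallest number searched that made nearly all values of a column whole. Times that number, all values of each column were whole within 0.001, except in control beta cells (99.988%). That wholeness was the criterion of the search, and UMI counts and intervals rest on the inferred numbers. The authors' deposited p-values and q-values, whose test is not described there, are at most 0.0103 (adjusted) for listed genes. The knockout beta column pools both mice. Knockout headers carry a number that was not matched to a sample, so the mice are called first and second.

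Ratios are knockout over control with no pseudocount, except that a group with no UMI of a gene was given 3 UMIs. Each 95% interval was taken from the Clopper-Pearson limits of the knockout share of a gene's UMIs. A fold of at least 1.5 stood in for a call. No model was fitted: the beta-cell knockout column is a pool, and in delta cells the single member is given by its value in each of 2 knockout mice and 1 control mouse. Like-level genes are other listed genes with a control mean at most 25% above or 20% below the member's. Fingers are matches to a pair of cysteines 2 to 4 residues apart, 12 residues, and a pair of histidines 3 to 5 residues apart, in the longest translated GENCODE M21 coding sequence of each gene. A KRAB A box was a match to the pattern of its valine, phenylalanine, tryptophan, leucine, leucine, tyrosine and valine positions with some replacements allowed. Scripts ran in Python 3.11.15 with scipy 1.17.1 and were tested on simulated data.

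Members and lists were chosen with earlier results of these data known. By rule, the text could name the 10 highest and 10 lowest ratios among members with at least 30 UMIs, the 8 highest control means, any member listed in alpha or delta cells, and a set of members with known roles, 46 beside Zfp644. Other members named were chosen after their values were seen. Alternatives were a fold of 2, a minimum of 30 UMIs, a pseudocount, 3 scalings, other definitions of like level, leaving out either knockout mouse, and, added after seeing the data, adding Zfp362, Zfp365 and Zfp367.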

Additional observations from a re-analysis of the deposited data

How the results depend on the processing

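The comparison with like-level genes changed little: the median difference ran from -0.09 to -0.06 on the log2 scale, and 44 to 51 members lay above, with other widths, deciles, the knockout mean or the mean of both groups as the level, a minimum of 30 UMIs, a pseudocount, and the 3 extra genes. Scaling shifts every gene alike and cannot change these values. The count past 1.5-fold, 79, moved with scaling. It was 26 at a fold of 2 and 22 with a pseudocount of 0.0519 UMIs per cell, for which shares of all listed genes are not given here. The count was 125 scaled to the listed total, beside 83.2% of all listed genes. It was 38 scaled without Ins1, Ins2 and Iapp, beside 25.7%, and 19 centred on the median, beside 16.0%. The median log2 ratio, 0.66, was 0.44 with the pseudocount, 1.01, 0.39 and 0.12 under those scalings in the same order. For Zfp644 in delta cells the log2 ratio of 1.11 was 0.80 with a pseudocount and 1.5 scaled to the listed total, and 0.93 to 1.27 with either knockout mouse left out. With a minimum of 30 UMIs 77 of 131 members passed, for which the share of all listed genes is not given here. With the 3 extra genes 82 of 136 passed, beside 45.7% of all listed genes. Alternatives for alpha cells were not run, since no member is listed there. No paired analysis was possible with 2 knockout mice and 1 control mouse, and with the knockout beta cells pooled. With 1 control mouse and pooled knockout beta cells, the spread between mice is unknown, and at under 10 control UMIs counting error alone spans several-fold.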
